A study of Rattus norvegicus with 12 samples.

Results

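The genes described here are caspases, members of the Bcl-2 family and further regulators of cell death, in rat lung after trauma and hemorrhagic shock. They were chosen by name: every probe set of the array whose platform gene symbol was Casp1, Casp2, Casp6, Bax, Bcl2, Bcl2l1, Mcl1, Fas or Pawr. Of these 9 genes 8 had a probe set, 20 in all among the 8740 tested, and no probe set carried the symbol Mcl1, so its RNA was not analysed here. RNA from lungs of male Sprague-Dawley rats had been hybridised to Affymetrix RG-U34A arrays, 1 array per replicate and 3 per group, and levels are given as log2 of the deposited intensity. The labels call the arrays biological replicates. Near-identical arrays were averaged, as given below, and p-values rest on the spread between the resulting 2 samples of a group, shared over all 4 groups.

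All 4 groups had catheters placed in a femoral artery and a jugular vein and had the abdomen opened, which is the trauma. Pentobarbital anesthesia is stated for T/HS and, by reference to it, for both ligated groups. T/HS rats (trauma with hemorrhagic shock) were bled into heparin to a mean arterial pressure of 30 mmHg for 90 min, received the shed blood back and had lung injury. T/HS-LDL rats went through the same shock after the lymph vessels leaving their mesentery had been tied and cut (lymph duct ligation), and T/SS-LDL rats had that ligation and a sham period without bleeding. T/SS rats had neither bleeding nor ligation. The submitters describe no lung injury in the last 3 groups, and rats were killed 3 h after the shock or sham period, which is 4.5 h after its start. Ligation and absence of injury go together in the shocked groups and cannot be told apart when T/HS is set against T/HS-LDL.

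Each group held 2 arrays that were nearly copies of each other: their log2 values differed with a robust SD of at most 0.0548, against at least 0.164 in any other pair within a group. Such arrays (replicates 2 and 3 of T/SS, replicates 1 and 3 elsewhere) were averaged and counted as 1 sample, so a group has 2 samples, the averaged one and a lone array. Over the 20 probe sets the arrays of such a pair differed by at most 0.17 log2 units. T/HS replicate 2 stood furthest from its group, with 248 and 256 probe sets over 2-fold away from T/HS replicates 1 and 3, against 40 to 158 for the lone arrays of the other groups. Sftpa1, Sftpb, Sftpc and Sftpd, the surfactant proteins that mark alveolar type II cells, had an intensity of at least 18663 in every sample, against array medians of 647 to 677.

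Apoptosis runs along converging routes. Death receptors such as Fas act from the cell surface, while the Bcl-2 family decides at the mitochondrion whether cytochrome c is released: Bax opens the outer membrane, and Bcl2, Bcl-xL (from Bcl2l1) and Mcl1 hold it shut. Caspases are the proteases that carry the signal out. In injured lung, death of epithelial and endothelial cells and delayed death of neutrophils are both well known. All values here are of RNA in whole lung, in which fewer cells of a type and less RNA per cell cannot be told apart.

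The 250 bases before the transcription start of Casp1 and of Pawr are shown because these genes gave the highest single sample relative to its group and the smallest p among the members. They come from RefSeq (build GRCr8, plus strand), for Casp1 chr8:10872580-10872829 and for Pawr chr7:45531989-45532238, written 5′ to 3′ with motif matches in capitals.
Casp1: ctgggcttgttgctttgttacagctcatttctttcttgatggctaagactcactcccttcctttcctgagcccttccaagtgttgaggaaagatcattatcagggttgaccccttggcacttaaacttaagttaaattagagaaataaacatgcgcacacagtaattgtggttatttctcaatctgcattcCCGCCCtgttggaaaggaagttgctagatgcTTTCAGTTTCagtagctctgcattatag
Pawr: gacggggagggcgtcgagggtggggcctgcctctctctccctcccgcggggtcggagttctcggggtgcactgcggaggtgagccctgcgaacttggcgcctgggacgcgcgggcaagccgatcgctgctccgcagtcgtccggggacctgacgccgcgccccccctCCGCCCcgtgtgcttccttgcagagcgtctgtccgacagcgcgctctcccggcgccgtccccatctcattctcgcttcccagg
The motifs searched, on both strands, were GAAA, any 2 bases and GAAA again, which is the core of the element through which interferons induce genes, and GGGCGG, the GC box bound by Sp1-type factors. The first was found in 1 of 11 member promoters, that of Casp1, on the minus strand and beginning 28 bases before the start, and in 3.41% of 33469 promoters of the same length. The GC box was found in 6 of the 11 and in 30.5% of all promoters. The 11 promoters belong to 8 genes, with 4 start sites of Bcl2l1 among them. They include Mcl1, which has no probe set here, and not Bax. A match describes these letters and does not show that a factor binds there.

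No member passed the test in any comparison: limma called 0 of the 20 probe sets at an adjusted p under 0.05, as it called 0 of all 8740, in each of the 6 contrasts. Between T/HS and T/SS the smallest adjusted p of a member was 0.498 (limma), and 1 member probe set, lower in T/HS, had an unadjusted p under 0.05, against 8.8% of all probe sets (3.66% higher and 5.14% lower). Both T/HS samples lay apart from both T/SS samples in 12 of the 20, with 3 higher and 9 lower, against 40.1% of all probe sets (19.2% higher and 20.9% lower). Between T/HS and T/HS-LDL 3 had an unadjusted p under 0.05, all lower in T/HS, against 6.37% of all probe sets (1.97% higher and 4.41% lower), and 6 did not overlap, all lower, against 34.1% of all (18.4% higher and 15.7% lower).

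Between T/HS-LDL and T/SS-LDL 0 had an unadjusted p under 0.05 (3.79% of all probe sets), and 6 did not overlap, all higher in T/HS-LDL, against 29.2% of all (16.8% higher and 12.4% lower). Between T/SS-LDL and T/SS 0 had an unadjusted p under 0.05 (4.23% of all), and 10 did not overlap, 4 higher and 6 lower, against 40.6% of all (16.2% higher and 24.5% lower). For shock averaged over both duct states 0 had an unadjusted p under 0.05, against 9.04% of all. Several probe sets report the same gene, so these counts are not of independent items. The shares for groups not overlapping compare groups pairwise. Some probe sets named below separate more widely, with all shocked samples above all sham samples or a group beyond all others. The share of all probe sets that do so was not counted, so such a separation is a description only. The median log2 difference of the 20 was -0.12 for T/HS against T/SS, -0.15 for T/HS against T/HS-LDL and 0.11 for shock with ligation, beside -0.01, 0.02 and 0.01 over all probe sets.

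**Figure D1:**
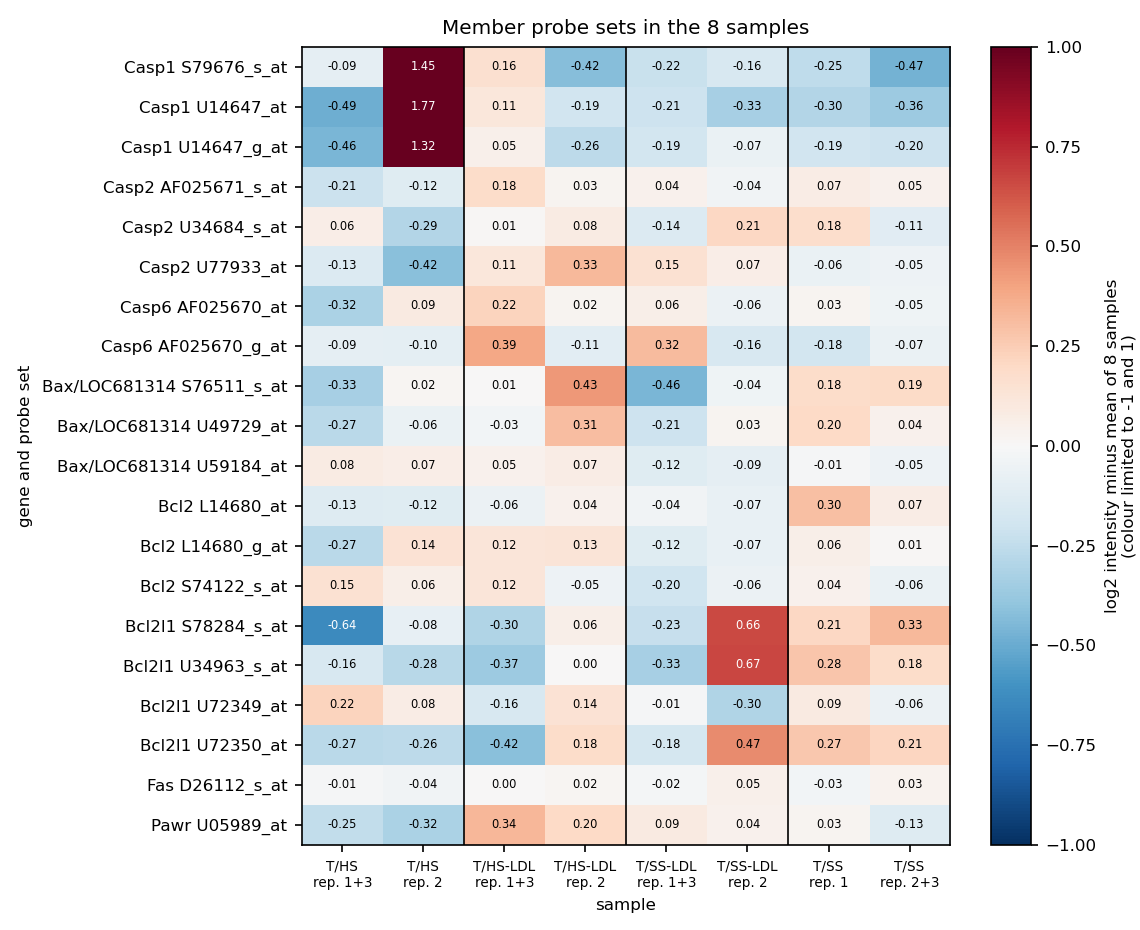
Each cell gives the log2 intensity of 1 member probe set (rows) in 1 of the 8 samples (columns, by group) minus that probe set's mean over the 8 samples, with colour limited to -1 and 1. The 3 Casp1 rows are highest in T/HS replicate 2, 3 of the 4 Bcl2l1 rows are highest in T/SS-LDL replicate 2, and the Pawr row is lowest in both T/HS samples.

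Casp1, the inflammatory caspase that cuts the precursors of interleukin 1 beta and interleukin 18, stood clearly high in 1 sample. On probe set U14647_at its level was 9.98 and 12.23 in T/HS, against 10.58 and 10.27 in T/HS-LDL, 10.26 and 10.14 in T/SS-LDL, and 10.11 and 10.17 in T/SS (log2 intensity, here and below with the averaged sample of each group first). T/HS replicate 2 lay above every other sample, and the averaged T/HS sample lay below them all. On S79676_s_at the level was 12.13 and 13.66 in T/HS, against 12.38 and 11.79 in T/HS-LDL, 11.99 and 12.06 in T/SS-LDL, and 11.74 and 11.97 in T/SS, with each T/HS sample higher than either T/SS sample. On U14647_g_at, T/HS replicate 2 was at 9.80 and the other 7 samples lay between 8.02 and 8.52.

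The mean difference of Casp1 between T/HS and T/SS rested on that sample. It was 1.04 ± 0.46 for S79676_s_at, 0.97 ± 0.62 for U14647_at and 0.63 ± 0.50 for U14647_g_at (log2, SE over 2 samples a group, limma adjusted p 0.579, 0.695 and 0.749). Without T/HS replicate 2 it was 0.27, -0.16 and -0.26 in the same order, so 2 of the 3 probe sets turned direction. Without the averaged T/HS sample it was 1.81, 2.10 and 1.52. These values come from a lone T/HS array, so they hold no spread of T/HS.

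Against T/HS-LDL the same sample decided. Casp1 differed by 0.81, 0.68 and 0.54 between T/HS and T/HS-LDL, and by 0.04, -0.45 and -0.35 without T/HS replicate 2. Without the averaged T/HS sample it differed there by 1.58, 1.81 and 1.43, again from a lone T/HS array. Between T/HS-LDL and T/SS-LDL the differences were 0.06 ± 0.46, 0.23 ± 0.62 and 0.02 ± 0.50 (SE, limma adjusted p 0.998 each), and the 95% interval of U14647_at ran from -1.25 to 1.70. That interval rests on 1 spread shared by all 4 groups. The SD on U14647_at was 1.59 in T/HS, 0.21 in T/HS-LDL and 0.08 in T/SS-LDL. Both T/HS-LDL samples lay above both T/SS-LDL samples there, which held for 16.8% of all probe sets.

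Il1b, whose precursor Casp1 cuts, had another pattern, at 11.37 and 12.70 in T/HS, against 11.32 and 11.66 in T/HS-LDL, 9.32 and 9.24 in T/SS-LDL, and 9.22 and 9.05 in T/SS. All shocked samples lay above all sham samples in Il1b, also those with Casp1 low. The differences of Il1b were 2.90 ± 0.38 for T/HS against T/SS and 2.21 ± 0.38 with the duct ligated (SE). The limma unadjusted p was 0.000143 and 0.000735, and the adjusted p 0.305 and 0.998. For T/HS against T/SS, 0.305 was the smallest adjusted p of all 8740 probe sets. Il1rn, the antagonist of the interleukin 1 receptor, was at 9.29 and 9.84 in T/HS, against 8.93 and 9.18 in T/SS, a difference of 0.51 ± 0.20 (limma unadjusted p 0.0361, adjusted p 0.534). P2rx7, the ATP receptor that triggers the inflammasome, differed by -0.25 ± 0.15 and Txnip, a thioredoxin-binding protein, by -0.24 ± 0.15 there (limma adjusted p 0.659 and 0.667). In all 5 of 13 listed genes of the caspase 1 pathway were measured and 0 passed. At an unadjusted p under 0.05, 2 of the 5, Il1b and Il1rn, were higher in T/HS than in T/SS. That held for 3.66% of all probe sets.

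Across the 8 samples the genes most like Casp1, among 4729 others, were Serping1, the inhibitor of complement C1 (Pearson r 0.984 with S79676_s_at), and Ugdh, UDP-glucose dehydrogenase (r 0.976). Genes named as most alike, here and below, are the top 2 of that search. A high r over only 8 samples was thus picked for, and whether it exceeds what such a search gives was not tested. In T/HS replicate 2 Serping1 was at 13.27, against 11.93 to 12.27 in the other samples. Markers of leukocytes that carry Casp1 were measured beside it. The 7 measured of 13 neutrophil markers summed to an intensity of 36390 and 71500 in T/HS, 62204 and 71573 in T/HS-LDL, 43995 and 33266 in T/SS-LDL and 26647 and 21134 in T/SS. The brightest markers weigh most in such a sum. The 5 measured of 12 monocyte and macrophage markers summed to 40909 and 45062 in T/HS, 35370 and 44702 in T/HS-LDL, 37487 and 37004 in T/SS-LDL and 37034 and 39609 in T/SS. The 11 measured of 13 T and NK cell markers summed to 15744 in the averaged T/HS sample and to between 7638 and 9246 in all others. T/HS replicate 2 had the lowest sum of the markers of endothelium (31807), alveolar type I cells (48139) and airway club and ciliated cells (63288). No marker of these lists was at 0, and the part of these cells in the level of Casp1 was not tested.

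**Figure D2:**
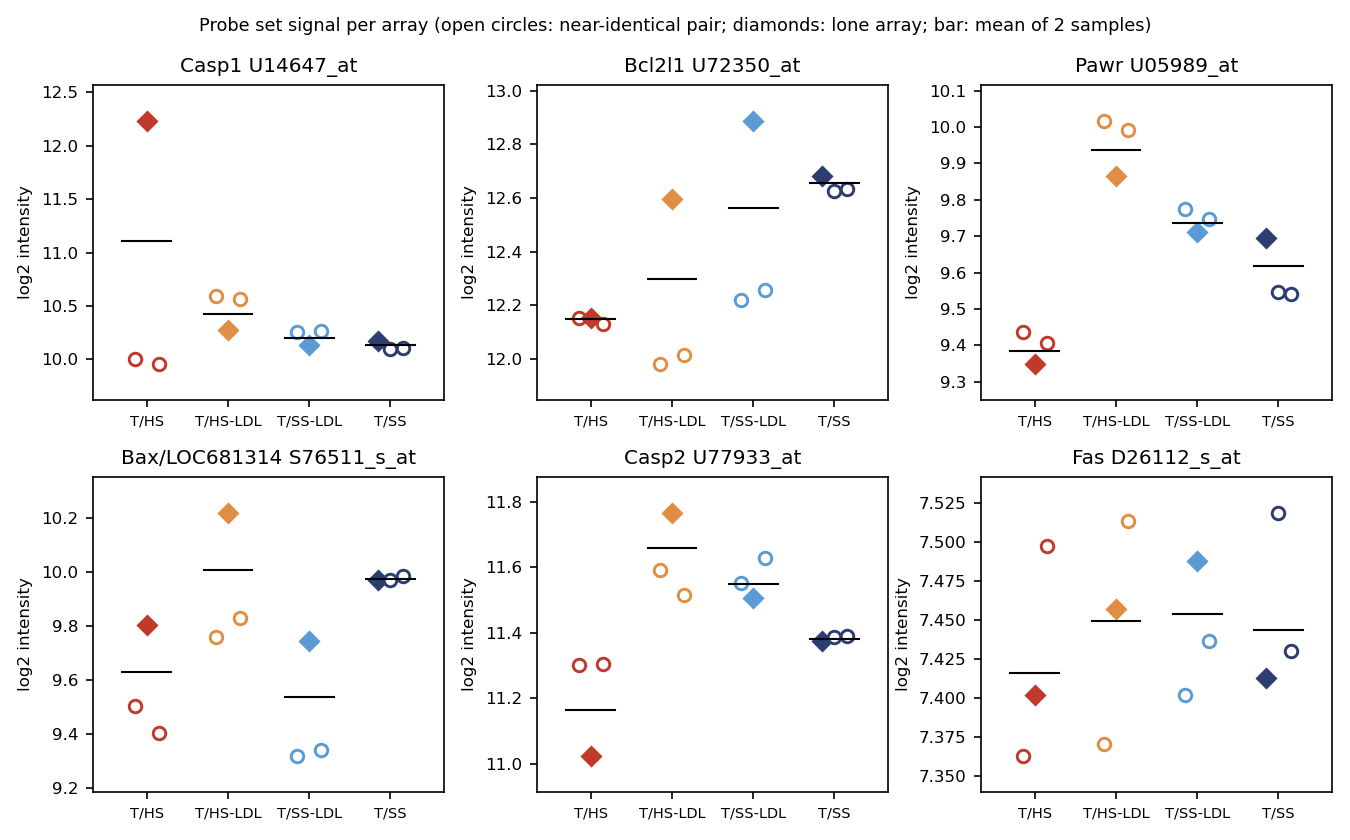
Log2 intensity (y axis) of 6 member probe sets on each of the 12 arrays, by group; open circles are the near-identical arrays, diamonds the lone array, and bars the mean of the 2 samples. Casp1 is high in the T/HS diamond alone, Pawr is lowest in T/HS and highest in T/HS-LDL, and the y axis differs between panels.

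Pawr (prostate apoptosis response 4), a pro-apoptotic protein that binds atypical protein kinase C, had the smallest p of the members. Its level on U05989_at was 9.42 and 9.35 in T/HS, against 10.00 and 9.87 in T/HS-LDL, 9.76 and 9.71 in T/SS-LDL, and 9.54 and 9.69 in T/SS. Both T/HS samples lay below all others and both T/HS-LDL samples above all others. By group mean the order was T/HS-LDL, T/SS-LDL, T/SS and T/HS, with no overlap between neighbours. T/HS differed from T/HS-LDL by -0.55 (95% interval -0.80 to -0.30, limma unadjusted p 0.00121, adjusted p 0.677). The difference was -0.23 ± 0.10 between T/HS and T/SS and 0.20 ± 0.10 between T/HS-LDL and T/SS-LDL (SE, limma adjusted p 0.579 and 0.998). As these groups did not overlap, leaving out 1 sample could not turn the difference of T/HS from T/HS-LDL, which stayed between -0.62 and -0.48. With the 12 arrays taken as separate samples it was -0.56 and passed (limma adjusted p 0.00292), but not with the sample as a random block (adjusted p 0.247).

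Across the 8 samples the genes most like Pawr were Ivns1abp, an actin-binding protein (r 0.941), and Nalcn, a sodium leak channel (r 0.918). Of 15 listed partners of Pawr and survival kinases 11 were measured, and none had an unadjusted p under 0.05 between any groups compared. Mapk9, a stress-activated kinase, was at 8.79 and 9.64 in T/HS, against 9.60 and 9.86 in T/HS-LDL, a difference of -0.51 ± 0.27 (SE, limma adjusted p 0.775). Hspa5, a chaperone of the endoplasmic reticulum, differed by -0.42 ± 0.23 there (limma adjusted p 0.780). Th, tyrosine hydroxylase, differed by -0.21 ± 0.11 between T/SS-LDL and T/SS, and Pik3r1, a subunit of phosphoinositide 3-kinase, by -1.27 ± 0.69 between T/HS-LDL and T/SS-LDL (limma adjusted p 0.896 and 0.998).

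Casp2, an initiator caspase of the stress response, was lowest in T/HS by group mean on all 3 of its probe sets. On U77933_at the level was 11.30 and 11.02 in T/HS, against 11.55 and 11.77 in T/HS-LDL, 11.59 and 11.51 in T/SS-LDL, and 11.39 and 11.37 in T/SS. Both T/HS samples lay below all others. T/HS differed from T/HS-LDL by -0.50 (95% interval -0.80 to -0.19, limma unadjusted p 0.00675, adjusted p 0.775) and from T/SS by -0.22 ± 0.13 (SE, limma adjusted p 0.661), or -0.08 without T/HS replicate 2. On AF025671_s_at the level was 9.88 and 9.97 in T/HS, against 10.27 and 10.12 in T/HS-LDL, 10.13 and 10.06 in T/SS-LDL, and 10.14 and 10.17 in T/SS, again with both T/HS samples below all others, and T/HS differed from T/HS-LDL by -0.28 ± 0.10 (limma adjusted p 0.775). U34684_s_at gave -0.16 ± 0.18 in that comparison (limma adjusted p 0.869) and 0.02 without T/HS replicate 2. With the 12 arrays as separate samples U77933_at and AF025671_s_at passed there, at -0.41 and -0.32 (limma adjusted p 0.0316 and 0.0303), but not with the replicate block (adjusted p 0.0673 and 0.0625) or the sample as a random block (0.503 and 0.878). The 3 probe sets correlated with each other at 0.15 to 0.56 over the 8 samples. Most like Casp2 were Abracl (r 0.975) and Sec61b, a subunit of the protein translocon (r 0.934).

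Casp6, an effector caspase, overlapped between the groups on AF025670_at, at 9.13 and 9.54 in T/HS, against 9.67 and 9.47 in T/HS-LDL, 9.51 and 9.39 in T/SS-LDL, and 9.40 and 9.48 in T/SS. On AF025670_g_at the averaged samples of T/HS-LDL and T/SS-LDL, at 10.01 and 9.93, lay above the other 6 samples, which were between 9.44 and 9.55. The smallest adjusted p of Casp6 between groups was 0.797 (limma). Hps3, a protein of lysosome-related organelles (r 0.990), and Lamb2, a laminin chain (r 0.952), were most like AF025670_g_at.

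Fas, the death receptor, varied least. Its level on D26112_s_at was 7.43 and 7.40 in T/HS, against 7.44 and 7.46 in T/HS-LDL, 7.42 and 7.49 in T/SS-LDL, and 7.47 and 7.41 in T/SS. The differences of T/HS were -0.03 ± 0.09 from T/SS and -0.03 ± 0.09 from T/HS-LDL (SE, limma adjusted p 0.955 and 0.945), with a 95% interval of -0.24 to 0.18 from T/SS. The probe set was brighter than 19.9% of probe sets, and the file carries no detection call. Most like Fas were Tgfbr3 (r 0.867), a receptor of transforming growth factor beta, and Htr1a (r 0.849), a serotonin receptor.

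Of 17 other death receptors, ligands and adaptors 9 were measured, and none had an unadjusted p under 0.05 between any groups compared. Ripk3, the kinase of necroptosis, was at 10.00 and 11.17 in T/HS, against 10.33 and 9.97 in T/HS-LDL, 9.76 and 9.76 in T/SS-LDL, and 9.82 and 9.86 in T/SS. It was highest in T/HS replicate 2, as Casp1 was, but every shocked sample lay above every sham sample. T/HS differed from T/SS in Ripk3 by 0.74 ± 0.34 (limma adjusted p 0.582). Tnfrsf1a, a receptor of tumor necrosis factor, was at 12.32 and 13.23 in T/HS, against 12.76 and 12.78 in T/HS-LDL, 12.44 and 12.42 in T/SS-LDL, and 12.25 and 12.32 in T/SS. It was highest in the same sample, and both T/HS-LDL samples lay above both T/SS-LDL samples. T/HS differed from T/SS in Tnfrsf1a by 0.49 ± 0.26 (limma adjusted p 0.633). Tnf differed by 0.02 ± 0.14 and its receptor adaptor Traf2 by 0.20 ± 0.11 (limma adjusted p 0.977 and 0.640).

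The 3 probe sets of Bax are each annotated to Bax and to LOC681314, a further rat locus, so their signal cannot be assigned to either alone. On S76511_s_at the level was 9.45 and 9.81 in T/HS, against 9.79 and 10.22 in T/HS-LDL, 9.33 and 9.74 in T/SS-LDL, and 9.98 and 9.97 in T/SS. Both T/HS samples lay below both T/SS samples, and both T/HS-LDL samples above both T/SS-LDL samples. The shock effect was -0.34 ± 0.20 with the duct open and 0.47 ± 0.20 with it ligated (SE, limma adjusted p 0.661 and 0.998). Leaving out 1 sample moved the effect with the duct open between -0.52 and -0.17, the value nearest 0 coming without the averaged T/HS sample, and that with it ligated between 0.26 and 0.68, the value nearest 0 coming without T/HS-LDL replicate 2. T/SS-LDL differed from T/SS by -0.44 ± 0.20 on the same probe set (limma adjusted p 0.896). U49729_at varied with it over the 8 samples (r 0.931), with shock differences of -0.28 ± 0.16 and 0.23 ± 0.16 (limma adjusted p 0.637 and 0.998).

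The remaining Bax/LOC681314 probe set, U59184_at, read otherwise (r 0.342 with S76511_s_at), at 13.49 and 13.47 in T/HS, against 13.45 and 13.48 in T/HS-LDL, 13.28 and 13.32 in T/SS-LDL, and 13.36 and 13.40 in T/SS. Every shocked sample lay above every sham sample, by 0.13 ± 0.06 over both duct states (SE, limma adjusted p 0.594), and this passed with the 12 arrays as separate samples (0.14, limma adjusted p 0.0204) but not with the sample as a random block (adjusted p 0.443). The share of all probe sets that separate shocked from sham samples in this way was not counted. Most like U59184_at were Taf1c, a factor of RNA polymerase I (r 0.959), and Map4k1, a kinase of blood cells (r 0.939).

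Bcl2l1, which encodes the survival protein Bcl-xL and its short pro-apoptotic isoform Bcl-xS, lay lower in both T/HS samples than in both T/SS samples on 3 of its 4 probe sets. On U72350_at the level was 12.14 and 12.15 in T/HS, against 11.998 and 12.60 in T/HS-LDL, 12.24 and 12.89 in T/SS-LDL, and 12.63 and 12.68 in T/SS. Both T/HS samples were low and both T/SS samples high, and each ligated group held a low averaged sample and a high lone array. On S78284_s_at the level was 10.92 and 11.47 in T/HS, against 11.25 and 11.61 in T/HS-LDL, 11.33 and 12.22 in T/SS-LDL, and 11.88 and 11.77 in T/SS. On U34963_s_at it was 10.44 and 10.32 in T/HS, against 10.23 and 10.60 in T/HS-LDL, 10.27 and 11.27 in T/SS-LDL, and 10.78 and 10.88 in T/SS. T/SS-LDL replicate 2 was the highest sample on all 3.

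T/HS differed from T/SS in Bcl2l1 by -0.51 ± 0.25 on U72350_at, -0.63 ± 0.31 on S78284_s_at and -0.45 ± 0.30 on U34963_s_at (SE, limma adjusted p 0.604, 0.604 and 0.711). On S78284_s_at it was -0.90 without T/HS replicate 2 and -0.35 without the averaged T/HS sample. The 95% intervals ran from -1.11 to 0.10, -1.37 to 0.11 and -1.16 to 0.27. With the duct ligated the shock differences were -0.27 ± 0.25, -0.34 ± 0.31 and -0.35 ± 0.30 (limma adjusted p 0.998 each), and without T/SS-LDL replicate 2 they were 0.06, 0.10 and 0.15, so their direction rested on this array. T/SS-LDL differed from T/SS by -0.09, -0.05 and -0.06, and without that array by -0.42, -0.50 and -0.56. The 3 correlated at 0.86 to 0.94 with each other over the 8 samples. The dim U72349_at, brighter than 21.2% of probe sets, did not follow them (r -0.59 to -0.30), and T/HS differed there from T/SS by 0.13 ± 0.15 (limma adjusted p 0.839). Most like Bcl2l1 were Sod3, the extracellular superoxide dismutase (r 0.949), and Tle5, a transcriptional corepressor (r 0.935).

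Bcl2, the founding survival protein of the family, gave 3 readings that hardly varied together, with r of -0.13 to 0.31. On S74122_s_at the level was 10.65 and 10.56 in T/HS, against 10.62 and 10.45 in T/HS-LDL, 10.30 and 10.44 in T/SS-LDL, and 10.44 and 10.55 in T/SS, and T/HS differed from T/SS by 0.11 ± 0.11 (SE, limma adjusted p 0.809). On L14680_g_at the level was 9.83 and 10.24 in T/HS, against 10.11 and 10.16 in T/SS, a difference of -0.10 ± 0.14 (limma adjusted p 0.882). L14680_at had the member p under 0.05 of that comparison, at 5.75 and 5.75 in T/HS, against 5.95 and 6.17 in T/SS, a difference of -0.31 ± 0.11 (limma unadjusted p 0.0244, adjusted p 0.498), and it was brighter than 1.54% of probe sets only. With the 12 arrays as separate samples it passed, at -0.27 (limma adjusted p 0.0377), but not with the replicate block (adjusted p 0.0533) or the sample as a random block (0.467). Most like S74122_s_at were Apoa2, an apolipoprotein (r 0.960), and Prxl2c (r 0.953).

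**Figure D3:**
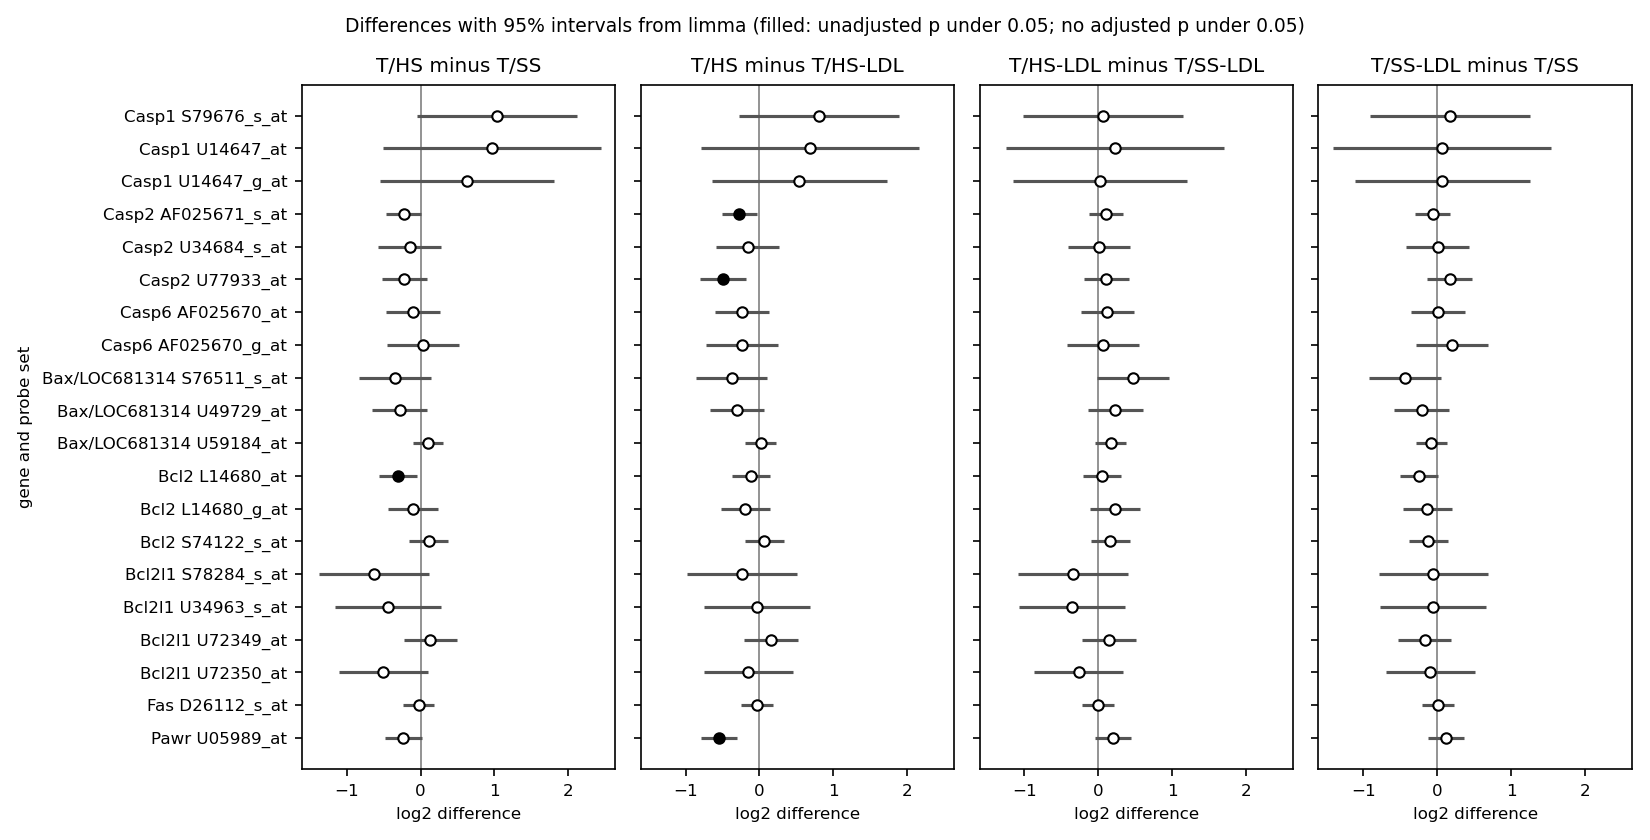
Log2 differences (points) with 95% intervals from limma (lines) for the 20 member probe sets in the 4 comparisons of groups; filled points have an unadjusted p under 0.05, and no adjusted p was under 0.05. The Casp1 intervals are the widest, and the filled points are Bcl2 L14680_at in T/HS minus T/SS, and Pawr and 2 Casp2 probe sets in T/HS minus T/HS-LDL.

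Of the rest of the Bcl-2 family 8 of 19 listed genes were measured, 0 passed, and their median difference between T/HS and T/SS was -0.08. Bid, which links death receptors to the mitochondrion, was at 10.03 and 10.83 in T/HS, against 9.73 and 9.82 in T/SS, a difference of 0.65 ± 0.27 (SE, limma unadjusted p 0.0488, adjusted p 0.568), with T/HS replicate 2 well above the averaged T/HS sample. Hrk, a BH3-only activator of death, was at 10.08 and 10.05 in T/HS-LDL, against 9.89 and 9.65 in T/SS-LDL, a difference of 0.29 ± 0.11 (limma unadjusted p 0.0394, adjusted p 0.998). Bcl2l2, a survival protein, differed by -0.23 ± 0.10 and Bcl2l11, the death activator Bim, by -0.11 ± 0.11 between T/HS and T/SS (limma adjusted p 0.579 and 0.821).

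Of 20 inhibitors of apoptosis and mitochondrial death proteins 6 were measured. Tspo, a protein of the outer mitochondrial membrane, was at 14.04 and 13.98 in T/HS, against 14.01 and 13.64 in T/HS-LDL, 13.60 and 12.78 in T/SS-LDL, and 13.27 and 13.20 in T/SS. Every shocked sample lay above every sham sample in Tspo, by 0.77 ± 0.26 with the duct open and 0.63 ± 0.26 with it ligated (SE, limma unadjusted p 0.0210 and 0.0461, adjusted p 0.489 and 0.998). Vdac1, a channel of that membrane, Birc2, an inhibitor of apoptosis, and Park7, a sensor of oxidative stress, differed between T/HS and T/SS by 0.03 ± 0.28, -0.09 ± 0.10 and -0.22 ± 0.19 (limma adjusted p 0.984, 0.831 and 0.772).

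Of 20 p53 and stress-induced death genes 11 were measured. Clu, the extracellular chaperone clusterin, was at 12.83 and 13.56 in T/HS, against 13.93 and 13.67 in T/HS-LDL, 13.64 and 13.87 in T/SS-LDL, and 13.95 and 13.69 in T/SS. T/HS differed in Clu from T/HS-LDL by -0.61 ± 0.24 and from T/SS by -0.63 ± 0.24 (SE, limma unadjusted p 0.0420 and 0.0370, adjusted p 0.775 and 0.535). Atf3, a stress-induced transcription factor, was at 9.01 and 11.14 in T/HS, against 9.11 and 9.82 in T/HS-LDL, 8.97 and 9.06 in T/SS-LDL, and 9.08 and 9.25 in T/SS. It was highest in T/HS replicate 2, as Casp1 was, and next highest in T/HS-LDL replicate 2. Sgk1, a kinase induced by glucocorticoids, differed by -0.67 ± 0.29 between T/HS-LDL and T/SS-LDL, and Dad1, a subunit of the oligosaccharyltransferase, by 0.25 ± 0.13 between T/SS-LDL and T/SS (limma adjusted p 0.998 and 0.896). Over the 7 pathway lists 49 of 109 genes were measured, and of the 7 listed caspases beyond the members 0 were. Between T/HS and T/SS 4 were higher and 1 lower at an unadjusted p under 0.05, which is 10.2%, beside 8.8% of all probe sets.

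The shock effects with the duct open and with it ligated share no sample. Pawr and Bax/LOC681314 on S76511_s_at were the 2 of 20 member probe sets in which shock gave opposite directions in the duct states with no overlap in either, against 3.28% of all probe sets. The difference between both shock effects was -0.43 ± 0.15 for Pawr and -0.81 ± 0.29 for S76511_s_at (SE, limma unadjusted p 0.0221 and 0.0269, adjusted p 1.00 for both). These were the 2 members with an unadjusted p under 0.05, both below 0, against 2.99% of all probe sets (1.19% above 0 and 1.8% below). That difference was below 0 in 17 of the 20, with a median of -0.19 beside -0.02 over all probe sets, and it was below 0 in 53.4% of all probe sets. The 3 above 0 were those of Casp1, which rested on T/HS replicate 2. Without that array Casp1 was at -0.39 on U14647_at, -0.28 on U14647_g_at and 0.21 on S79676_s_at, and Casp2 on U34684_s_at (0.02) and Bcl2l1 on U72349_at (0.06) lay above 0. Markers of heart muscle, which rat lung holds around its pulmonary veins, differed between the duct states the other way round. The median log2 difference of all 8 listed was 0.51 with the duct open and -0.70 with it ligated. For the difference between both effects their median was 1.22, and 3 of them, all above 0, had an unadjusted p under 0.05. Their summed intensity was 22505 and 19015 in T/HS, 18444 and 6648 in T/HS-LDL, 21571 and 25031 in T/SS-LDL and 9809 and 20399 in T/SS. It was lowest in T/HS-LDL replicate 2 and next lowest in the averaged T/SS sample, and the lone T/SS array lay between the T/HS samples. Their part in the values of Pawr and Bax/LOC681314 was not tested.

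**Figure D4:**
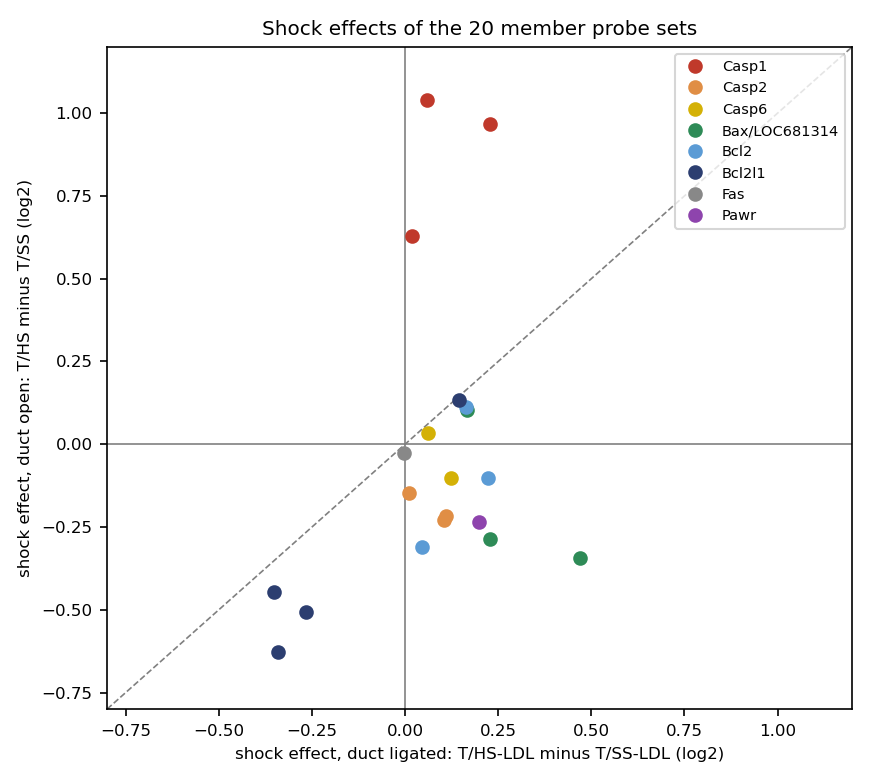
Each point is 1 member probe set, with the shock effect in rats with a ligated duct (T/HS-LDL minus T/SS-LDL, log2) on the x axis and that with an open duct (T/HS minus T/SS, log2) on the y axis; the dashed line marks equal effects. The 3 Casp1 points lie above the line and the other 17 below it, and without T/HS replicate 2 the Casp1 points of U14647_at and U14647_g_at would lie below it.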

How the data were processed

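RNA of rat lung was measured on 12 RG-U34A arrays, 3 per group. The deposited intensity values are linear and were made by the authors with RMA, per the submitters' processing notes. RMA as a method corrects background, normalizes between arrays and summarises the probes of a set; its version and a genome build are not given in the sources used here. Their log2 was taken without rescaling. The number of arrays limits the precision.

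The file holds 8799 probe sets, less 59 controls (a mouse Fas control among them). Of the 8740 tested, 7006 carried 1 platform symbol, 308 several and 1426 none. Near-identical arrays (robust SD under 0.1) were averaged, giving 8 samples. A model of the 4 groups was fitted with limma 3.58.1 in R 4.3.3 (lmFit, eBayes; 4 residual degrees of freedom), with 4 comparisons of groups, the difference between both shock effects and their mean. Tests were two-sided, with Benjamini-Hochberg adjustment over all probe sets and a threshold of 0.05. Errors are limma standard errors.

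The members, the lists and the averaging were chosen with earlier results of these data known. Named are all member probe sets (those of Bax although each carries a second symbol), up to 4 genes per pathway list by smallest p between groups, and the 2 genes most correlated with each member's brightest probe set. The fit was tested on simulated data. Alternatives were the 12 arrays as separate samples, replicate and sample blocks, quantile normalization, an offset, a filter on dim probe sets, an intensity trend and leaving out each sample.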

Additional observations from a re-analysis of the deposited data

Results flagged for a closer look

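The shock effect on Pawr (U05989_at) and on Bax/LOC681314 (S76511_s_at) ran in opposite directions with the duct open and with it ligated, in every sample. The other Bax/LOC681314 probe sets did not share this in full. U59184_at, the brightest, rose in both duct states (0.10 and 0.17), and the ligated groups overlapped on U49729_at. The difference between both effects was -0.43 for Pawr and -0.81 for S76511_s_at on the log2 scale. In limma's test of that difference neither passed after adjustment (adjusted p 1.00 for both). The 8 heart muscle markers differed the other way round, by a median of 0.51 with the duct open and -0.70 with it ligated. Their part was not tested. Whichever sample was left out, the difference lay between -0.51 and -0.36 for Pawr and between -1.02 and -0.60 for S76511_s_at. Both were flagged because their groups did not overlap, so leaving out 1 sample could not turn the direction. The flag used these same values, so the size is a description and no separate support.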

How the results depend on the processing

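With 8 samples limma called 0 of 8740 probe sets in each of the 6 contrasts. At an unadjusted p under 0.05 there were 769 for T/HS against T/SS, 557 for T/HS against T/HS-LDL, 331 for shock with the duct ligated, 370 for ligation without shock, 261 for the difference between both shock effects and 790 for their mean. In that order, 629, 372, 127, 141, 1 and 733 passed after adjustment with the 12 arrays as separate samples. Adding the replicate number to that fit as a block left 456, 130, 47, 21, 1 and 570. Near-identical arrays taken as separate samples lower the spread by construction. A random block for the sample gave 25 for T/HS against T/SS, 58 for the mean shock effect and 0 in the other contrasts. Leaving out each of the 8 samples gave 0 to 139, 0 to 66, 0 to 2, 0 to 2, 0 to 27 and 0 to 108, with the remaining lone sample assumed to vary like the other groups. The highest of these, save for ligation without shock, came without the averaged T/HS sample, and without T/HS replicate 2 the counts were 5, 4, 2, 0, 1 and 10. Quantile normalization, leaving out the dimmest 25% of probe sets, an offset of 50 and an intensity trend in eBayes gave 0 throughout.

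The 6 member differences with an unadjusted p under 0.05 kept their direction in all 89 values over 15 settings, and 5 values passed, all with the 12 arrays as separate samples. These 6 were picked by that p, and their groups did not overlap. Leaving out 1 sample could therefore not turn their direction. Whether the replicate numbers pair the samples could not be decided. Once group levels were removed, arrays sharing a number correlated above 0.1 in 3 of 18 pairs (r from -0.17 to 0.19). As every group held near-identical arrays, these pairs largely repeat each other. The lone array also had another number in T/SS than elsewhere. With the replicate block, Pawr differed between T/HS and T/HS-LDL by -0.56 (limma adjusted p 0.00923) and Bcl2l1 on S78284_s_at between T/HS and T/SS by -0.74 (0.0299). With the sample as a random block neither passed (limma adjusted p 0.247 and 0.449), nor did any other member. That fit still holds all 12 arrays and allows for near-identical ones by 1 correlation shared by all probe sets. Signal near background, as may hold for Fas, Bcl2 (L14680_at) and Bcl2l1 (U72349_at), limits what a missing difference shows.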
